A study of Danio rerio with 30 samples.

Results

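The transcription factors xbp1 and atf6 were disrupted singly and together in zebrafish embryos, and their effects on messenger RNA are compared in single cells. The libraries were chosen by title: xbp1-cr, atf6-cr, xbp1+atf6-cr and the first tyr-cr library, which are 4 of the 30 libraries of the series. All embryos were of the TL/AB strain, were injected with Cas9 and guide RNA at the 1-cell stage and were dissociated whole at 12 hours post fertilization (hpf), with about 30 embryos pooled per library. The xbp1-cr embryos carried guides to xbp1, the atf6-cr embryos guides to atf6, and the xbp1+atf6-cr embryos guides to both. The tyr-cr controls carried guides to tyr, a pigment gene, so that the controls were injected and edited as well. Such embryos, called crispants, are mosaic, since each cell can keep an unedited copy of the targeted gene, and the editing of single cells was not read here. Messenger RNA was counted per cell by droplet single-cell sequencing (10x Genomics, V3 chemistry), as unique molecular identifiers (UMIs), each standing for 1 captured transcript. There was 1 library per genotype, so that no difference between genotypes could be tested, and every interval given covers counting error only.

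Both proteins belong to the unfolded protein response, by which a cell fits the folding and transport capacity of its endoplasmic reticulum (ER) to its load of secreted protein. The sensor Ire1, encoded by ern1, splices xbp1 messenger RNA into the form that encodes the active factor. Atf6 sits in the ER membrane and is cut by Golgi proteases, which releases its active part. The study asked whether such factors set the level of secretory machinery genes in the hatching gland, which stores the enzymes that dissolve the egg envelope, and in the notochord, which secretes a matrix sheath.

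Cells were kept from 1000 UMIs upwards if mitochondrial genes gave 10% or less of them. This left 4687 cells in xbp1-cr, 4421 in atf6-cr, 4271 in xbp1+atf6-cr and 3859 in tyr-cr. Median depth was 12811, 13967, 13638 and 12591 UMIs per cell in that order. Between 4 and 9 cell barcodes were shared by any pair of these libraries, at most 0.233% of the cells of the smaller library. Hatching gland-like cells, named from their markers, were 87 in xbp1-cr (1.86% of cells), 83 in atf6-cr (1.88%), 73 in xbp1+atf6-cr (1.71%) and 72 in tyr-cr (1.87%). The 8 markers of that gland summed to between 32984 and 45469 CPM in these cells, and all were detected. Levels are in CPM, the UMIs of a gene scaled to the total of the same cells in that library. Notochord-like cells were 61 in xbp1-cr (1.3%), 89 in atf6-cr (2.01%), 58 in xbp1+atf6-cr (1.36%) and 58 in tyr-cr (1.5%). They include a cluster of low depth, with a median of 2822 UMIs per cell. A further notochord-like cluster, without emilin3a, loxl5b and col8a1a among its markers but with noto, was counted with the cells outside gland and notochord. Other 12 hpf libraries serve below as a measure of how far libraries differ: 8 with xbp1 and atf6 intact, of which 3 were in the same set of files, and 3 more with xbp1 lost. These are not all unperturbed, since 5 of the 8 lacked creb3l1, creb3l2 or both, which encode ER membrane factors of a related kind, among them all 3 of the same file set. Of these 5, 2 were titled creb3l1-hom, that is as homozygous for creb3l1 and not as crispants, 1 of them in the same file set. Of the other 3 of the 8, 1 was the second tyr-cr library and 2 were uninjected (tlab). The 3 other libraries with xbp1 lost also lacked creb3l1 and creb3l2, and 2 of them lacked atf6 as well.

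The targeted transcripts were lower in their own crispants, but by very different amounts. Over all cells, xbp1 stood at 286 CPM in xbp1-cr, 394 CPM in atf6-cr and 168 CPM in xbp1+atf6-cr, against 384 CPM in tyr-cr. An edited transcript is still counted, so these levels do not measure the loss of the protein. Over all cells, atf6 stood at 36.5 CPM in xbp1-cr, 9.66 CPM in atf6-cr and 6.39 CPM in xbp1+atf6-cr, against 54.1 CPM in tyr-cr. In whole-embryo sums, fewer cells that express a gene and less RNA per cell cannot be told apart. The tyr transcript gave between 2 and 6 UMIs in each library and therefore checked nothing.

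In hatching gland-like cells the 4 libraries separated further. There xbp1 was at 4154 CPM in xbp1-cr, 5309 CPM in atf6-cr and 2142 CPM in xbp1+atf6-cr, against 4994 CPM in tyr-cr. The 8 other intact libraries ranged over 4346 to 5522 CPM, with xbp1-cr just under and the double crispant far under them, and the 3 other xbp1-lost libraries ranged over 1464 to 2595 CPM. The atf6 transcript was at 84.8 CPM in xbp1-cr, 45.0 CPM in atf6-cr and 4.98 CPM in xbp1+atf6-cr, against 290.1 CPM in tyr-cr, from 171, 73, 9 and 397 UMIs in the same order. The gland cells of the xbp1 crispant thus held 0.292 times the control's atf6 messenger RNA (95% counting interval 0.243 to 0.351), below the 124 to 304 CPM of the other intact libraries, although atf6 was not targeted in them. No such difference ran the other way, since xbp1 in atf6-cr was 1.06 times the control (1.03 to 1.1).

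Secretory machinery genes were far lower in the hatching gland of both crispants that lost xbp1 and at the control's level in the one that lost atf6 alone. Here 140 genes in 8 lists make up the secretory set: ER chaperones, disulfide isomerases, ER-associated degradation, translocation, oligosaccharyltransferase, the COPII and COPI coats, and cargo receptors. Their UMIs were 2.78% of all gland UMIs in xbp1-cr, 6.51% in atf6-cr and 1.93% in xbp1+atf6-cr, against 6.62% in tyr-cr. The 8 other intact libraries ranged over 5.34% to 6.91%, and the 3 other xbp1-lost libraries over 2.35% to 2.51%. In the notochord-like cells of the same 4 libraries the shares were 3.72%, 4.51% and 3.67% in xbp1-cr, atf6-cr and xbp1+atf6-cr, against 4.80% in tyr-cr. The median share over notochord-like cells was 4.91% in tyr-cr, above the 3.09% to 4.27% of the 8 other intact libraries. By that median xbp1-cr (3.49%) and xbp1+atf6-cr (3.79%) lay inside this range, and atf6-cr (4.53%) above it.

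Of the 140 genes, 118 had at least 100 UMIs over the 4 libraries in gland cells, the minimum for a ratio. Their median log2 ratio to tyr-cr was -1.21 in xbp1-cr, 0.08 in atf6-cr and -1.58 in xbp1+atf6-cr. The median over all 4470 genes measured was 0.05, 0.09 and 0.13 in that order, and the secretory median of the 8 other intact libraries against tyr-cr ranged over -0.35 to 0.11. At least 2-fold lower were 71 secretory genes in xbp1-cr, beside 5.86% of all genes, 3 in atf6-cr, beside 1.66%, and 84 in xbp1+atf6-cr, beside 7.2%. Lower by any amount were 114 of the 118 in xbp1-cr, 43 in atf6-cr and 112 in xbp1+atf6-cr, against 2005, 1828 and 1722 of all 4470 genes. The 3 comparisons share the tyr-cr library.

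**Figure D1:**
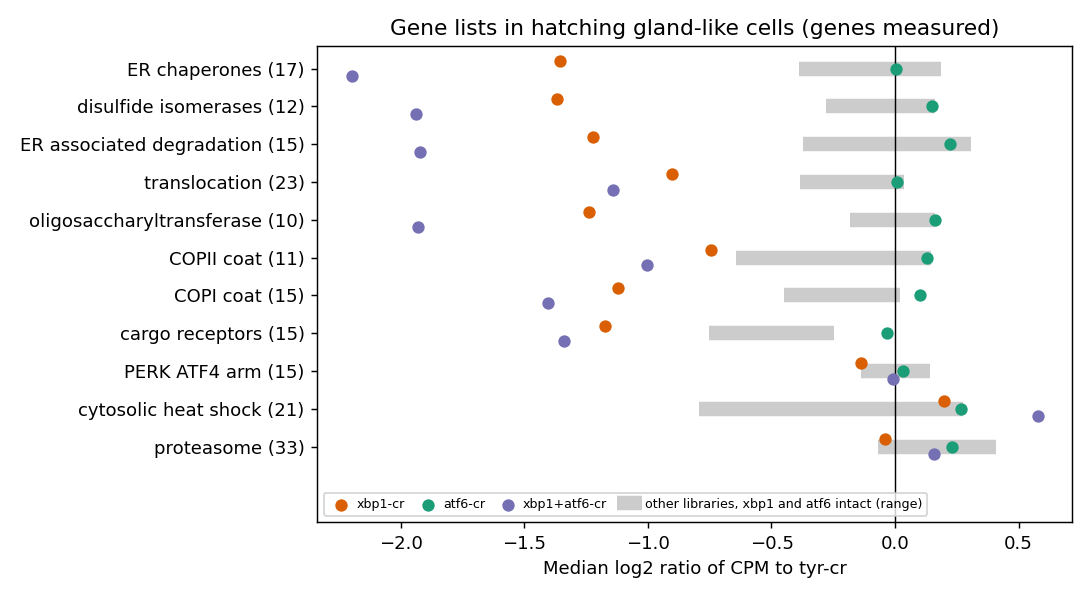
Median log2 ratio of CPM to tyr-cr (x axis) for the genes of each list in hatching gland-like cells, with 1 point each for xbp1-cr, atf6-cr and xbp1+atf6-cr and a grey bar for the range of the 8 other 12 hpf libraries with xbp1 and atf6 intact. For the 8 secretory lists the xbp1-cr and xbp1+atf6-cr points lie left of the bars, from -0.74 to -2.20, whereas the atf6-cr points lie between -0.03 and 0.22.

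The ER chaperones, which fold newly made proteins, had the lowest median of the 8 lists in the double crispant. Their median log2 ratio over 17 genes was -1.36 in xbp1-cr, 0.00 in atf6-cr and -2.20 in xbp1+atf6-cr, and 14, 0 and 14 of them were at least 2-fold lower. The main ER Hsp70, BiP, encoded by hspa5, was at 313 CPM in xbp1-cr, 1380.4 CPM in atf6-cr and 91.3 CPM in xbp1+atf6-cr, against 1031 CPM in tyr-cr. BiP was thus 0.303 times the control in xbp1-cr (0.276 to 0.333), 1.34 times in atf6-cr (1.25 to 1.43) and 0.0886 times in the double crispant (0.0749 to 0.104). Both crispants with xbp1 lost lay below the 1048 to 1473 CPM of the other intact libraries, and atf6-cr lay inside that range. In the other xbp1-lost libraries, where creb3l1 and creb3l2 were lost too, BiP was at 189.9 and 329.9 CPM in the 2 without atf6, against 262 CPM in the one that kept it. Those libraries therefore did not repeat the lower BiP level of the double crispant.

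Other chaperones followed the same order of libraries. The ER Hsp90 gene hsp90b1 was at 78.4 CPM in xbp1-cr, 356 CPM in atf6-cr and 21.6 CPM in xbp1+atf6-cr, against 356 CPM in tyr-cr. The ER-resident factor manf was at 75.4 CPM in xbp1-cr, 324 CPM in atf6-cr and 24.4 CPM in xbp1+atf6-cr, against 297 CPM in tyr-cr. For both genes the double crispant was lowest of the 4 libraries and atf6-cr was near the control. In the other xbp1-lost libraries hsp90b1 was at 40.96 and 83.4 CPM in those without atf6, against 72.8 CPM in the one that kept it. By contrast sdf2l1, whose product is a partner of BiP, was at 357 CPM in xbp1-cr, 749 CPM in atf6-cr and 286 CPM in xbp1+atf6-cr, against 846 CPM in tyr-cr, so that the crispants with xbp1 lost lay close together. For this gene tyr-cr itself lay above the 396 to 721 CPM of the 8 other intact libraries, and xbp1-cr lay just under that range. The calreticulin gene calr3b was at 1681 CPM in xbp1-cr, 2903 CPM in atf6-cr and 1737 CPM in xbp1+atf6-cr, against 2078 CPM in tyr-cr, which is 0.809, 1.40 and 0.836 times the control. The co-chaperone gene dnajb9b had few UMIs: 18 in xbp1-cr, 52 in atf6-cr and 2 in xbp1+atf6-cr, against 54 in tyr-cr, a ratio for the double crispant of 0.0281 with a counting interval of 0.00331 to 0.106.

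Disulfide isomerases, which form and rearrange disulfide bonds, had medians of -1.37, 0.15 and -1.94 over 12 genes in xbp1-cr, atf6-cr and xbp1+atf6-cr. The isomerase gene pdia4 was at 24.3 CPM in xbp1-cr, 103 CPM in atf6-cr and 2.21 CPM in xbp1+atf6-cr, against 67.2 CPM in tyr-cr. The secretory cell isomerase gene agr2 was at 94.7 CPM in xbp1-cr, 215 CPM in atf6-cr and 15.5 CPM in xbp1+atf6-cr, against 229 CPM in tyr-cr. Both were near or above the control in atf6-cr and lowest in the double crispant. A different order held for p4hb, which encodes protein disulfide isomerase, at 371 CPM in xbp1-cr, 664 CPM in atf6-cr and 217 CPM in xbp1+atf6-cr, against 1441 CPM in tyr-cr. It was 0.461 times the control in atf6-cr (0.428 to 0.497), but tyr-cr itself lay above the 455 to 1186 CPM of the 8 other intact libraries. Not every member was lower: tmx1, txndc12 and pdia7 had log2 ratios in the double crispant of 0.18, 0.46 and 1.42.

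Genes for entry into the ER and for glycosylation there were lower as well. The translocation list, which covers the signal recognition particle, the Sec61 channel and signal peptidase, had medians of -0.90, 0.01 and -1.14 over 23 genes in xbp1-cr, atf6-cr and xbp1+atf6-cr. The channel subunit gene sec61b was at 1235 CPM in xbp1-cr, 5675 CPM in atf6-cr and 408 CPM in xbp1+atf6-cr, against 5826 CPM in tyr-cr. Its partner sec61a1l, which is not in the list, was at 245 CPM in xbp1-cr, 1089.5 CPM in atf6-cr and 39.3 CPM in xbp1+atf6-cr, against 1159.6 CPM in tyr-cr. The other channel genes of the list, sec61a1 and sec61g, had log2 ratios of -1.87 and -1.74 in xbp1-cr, -0.14 and -0.50 in atf6-cr, and -3.15 and -3.06 in xbp1+atf6-cr. In both crispants with xbp1 lost these 4 genes lay further below the control than the list's median, whereas sec62, which helps proteins enter after translation, had log2 ratios of -0.14, -0.05 and -0.17. The oligosaccharyltransferase, which attaches sugar chains, had medians of -1.24, 0.16 and -1.93 over 10 genes. Its subunit gene krtcap2 was at 278 CPM in xbp1-cr, 1280.0 CPM in atf6-cr and 103 CPM in xbp1+atf6-cr, against 1058 CPM in tyr-cr.

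Vesicle transport and degradation genes showed the same split. COPII genes, whose coat carries cargo out of the ER, had medians of -0.74, 0.13 and -1.0 over 11 genes in xbp1-cr, atf6-cr and xbp1+atf6-cr. COPI genes, whose coat returns material to the ER, had medians of -1.12, 0.10 and -1.40 over 15 genes, and cargo receptors -1.18, -0.03 and -1.34 over 15 genes. The cargo receptor gene lman1 was at 37.2 CPM in xbp1-cr, 199 CPM in atf6-cr and 2.77 CPM in xbp1+atf6-cr, against 183 CPM in tyr-cr, and the COPI gene copz2 at 30.8, 209 and 2.21 CPM, against 142 CPM in tyr-cr. In the double crispant these last values rest on 5 and 4 UMIs. The genes of ER-associated degradation, which clears misfolded proteins, had medians of -1.22, 0.22 and -1.92 over 15 genes. One of them, edem1, which selects glycoproteins for degradation, was at 49.6 CPM in xbp1-cr, 160.2 CPM in atf6-cr and 17.2 CPM in xbp1+atf6-cr, against 143 CPM in tyr-cr. The cytosolic segregase gene vcp, used by many pathways, differed less, with log2 ratios of -0.46, -0.00 and -0.20.

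The median of the third branch's genes, and the gland's own cargo, did not follow the machinery, whereas the sensor gene of that branch did. The PERK and ATF4 list, which covers amino acid supply and stress genes, had medians of -0.14, 0.03 and -0.01 over 15 genes in xbp1-cr, atf6-cr and xbp1+atf6-cr. In it atf4a, the factor of that branch, was at 134 CPM in xbp1-cr, 166 CPM in atf6-cr and 143 CPM in xbp1+atf6-cr, against 153 CPM in tyr-cr, and ddit3, which encodes the stress factor CHOP, gave 5, 4 and 5 UMIs, against 6 in tyr-cr. The PERK sensor gene, eif2ak3, was at 11.4 CPM in xbp1-cr, 34.5 CPM in atf6-cr and 6.64 CPM in xbp1+atf6-cr, against 32.2 CPM in tyr-cr. Both crispants with xbp1 lost thus lay below the control and atf6-cr was near it, but these levels rest on few UMIs. The hatching enzyme gene he1.1, whose near-identical copies may share reads, was at 13677 CPM in xbp1-cr, 11815 CPM in atf6-cr and 14879 CPM in xbp1+atf6-cr, against 10873 CPM in tyr-cr. The gland regulator gene klf17 was at 604 CPM in xbp1-cr, 494 CPM in atf6-cr and 585 CPM in xbp1+atf6-cr, against 522 CPM in tyr-cr.

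In gland-like cells of atf6-cr more genes were 2-fold higher than lower, unlike in the crispants with xbp1 lost. At least 2-fold away from tyr-cr were 345 genes in xbp1-cr (7.72% of 4470), 228 in atf6-cr (5.1%) and 440 in xbp1+atf6-cr (9.84%). The 3 other intact libraries of the same file set gave 4.05% to 8.55% by the same rule, and the 8 together 4.05% to 22.1%. Both upper ends came from creb3l1-hom libraries. The double crispant thus lay above the intact libraries of its own file set and inside the range of all 8. The single crispants lay inside both ranges. In the gland lower genes prevailed in xbp1-cr, with 262 lower and 83 higher, and in xbp1+atf6-cr, with 322 lower and 118 higher. There atf6-cr had 74 lower and 154 higher. Over all cells 119 genes were lower and 118 higher in xbp1-cr, 260 and 333 in atf6-cr, and 80 and 181 in xbp1+atf6-cr. An excess of higher genes was thus not limited to the gland and, over all cells, not to atf6-cr. In notochord-like cells 38 of 3297 genes were lower and 72 higher in xbp1-cr, 32 and 118 in atf6-cr, and 30 and 76 in xbp1+atf6-cr. The genes farthest below the control in atf6-cr by their interval bound were atf6 itself, si:ch211-121a2.2, cu104709.1, si:ch211-108d22.2 and icn. The farthest above were aplp1, cnfn, neurog1, cdx4 and ved, of which neurog1 is a neural and cdx4 a posterior patterning gene. Of these, cnfn was also among the 5 genes farthest above the control in gland-like cells of xbp1-cr. Against the second tyr-cr library, which is in the other file set, aplp1, cdx4 and ved were lower in atf6-cr, with log2 ratios of -0.63, -0.67 and -1.12. Markers of neurons summed to 93.8 CPM in gland-like cells of xbp1-cr, 51.1 CPM in atf6-cr and 79.7 CPM in xbp1+atf6-cr, against 2.92 CPM in tyr-cr and 4.68 to 137 CPM in the other intact libraries, with onecut1 at 0. Their part in these results was not tested.

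Whether the losses of both factors add up was read as additivity, the log2 of the double crispant's CPM times the control's, divided by the product of the single crispants' values. It is 0 where the double crispant has the value that its single ratios multiply to, and negative where it is lower. In gland-like cells the median over the 118 secretory genes was -0.48, and 94 of them were below 0. Over all 4470 genes the median was -0.03 and 2346 were below 0. The list medians were -0.93 for ER chaperones, -0.98 for ER-associated degradation, -0.75 for the oligosaccharyltransferase, -0.68 for disulfide isomerases and -0.37 for translocation. COPI genes had -0.28, cargo receptors -0.29 and COPII genes -0.16. These medians rest on sums over cells. Additivity of a list's share of UMIs is another measure than the median over genes. From the summed share it was -0.55 for ER chaperones, -0.53 for ER-associated degradation, -0.76 for the oligosaccharyltransferase and -0.40 for disulfide isomerases. From the median share over cells it was -0.39, -0.24, -0.07 and 0.20 in that order. For the other lists the values from the median share, given below, were also less negative or positive.

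For BiP the single ratios multiply to 418 CPM in the double crispant, where 91.3 CPM was measured, an additivity of -2.20 (95% counting interval -2.46 to -1.93). The xbp1-cr sum mixed unlike cells, as described below, which counting intervals do not cover. Of its 630 BiP UMIs, 453 came from 17 of the 87 cells, those with a secretory share like the control's. These cells also held 131 of 158 UMIs of hsp90b1 and 124 of 152 of manf. Their BiP level was 1138 CPM, against 109 CPM in the other 70 cells. The share that split the cells includes BiP, hsp90b1 and manf, so that these values only describe the split. The immunophilin gene fkbp11, which encodes an ER prolyl isomerase, was at 437 CPM in xbp1-cr, 2394 CPM in atf6-cr and 98.0 CPM in xbp1+atf6-cr, against 1888 CPM in tyr-cr, an additivity of -2.50 (-2.74 to -2.25). Among the 5 genes farthest below 0 by their interval bound it stood with sec61a1l, at -2.55 (-2.92 to -2.18), and with zgc:153675, si:ch211-152c2.3 and ckbb. The additivity of sdf2l1 was -0.14 (-0.34 to 0.06), and that of p4hb was 0.34 (0.14 to 0.55). For both genes the tyr-cr level that enters lay above the range of the other intact libraries. The hatching enzyme gene he1.1 had 0.00 (-0.04 to 0.04).

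**Figure D2:**
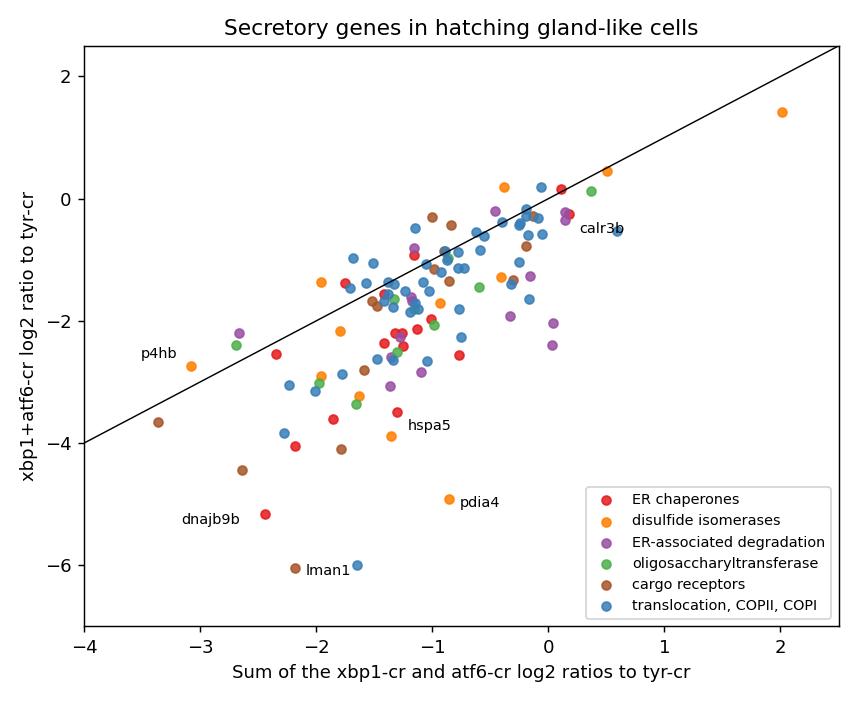
Each point is 1 secretory gene in hatching gland-like cells, with the sum of its xbp1-cr and atf6-cr log2 ratios to tyr-cr on the x axis and its xbp1+atf6-cr log2 ratio on the y axis; points on the diagonal have an additivity of 0. Of the 118 genes, 94 lie below the diagonal, with lman1 and copz2 lowest.

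Set directly against the xbp1 single crispant, the double crispant had a secretory median of -0.38 in gland-like cells, with 97 of 118 genes lower and 27 at least 2-fold lower, beside 2.01% of all genes. Against the atf6 single crispant the median was -1.65. These values are sums over cells, and the cells of the xbp1 crispant were not alike.

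In the xbp1 crispant, gland-like cells formed a large low range and a small range at the control's level. The secretory share of a single cell had a median of 1.88% in xbp1-cr, 6.79% in atf6-cr and 1.83% in xbp1+atf6-cr, against 6.39% in tyr-cr. The 10th and 90th percentiles were 1.47% and 6.54% in xbp1-cr, 4.12% and 8.08% in atf6-cr, and 1.53% and 2.24% in xbp1+atf6-cr, against 4.16% and 8.29% in tyr-cr. The xbp1 single crispant thus reached from the double crispant's values up into the control's, whereas the double crispant's cells lay almost all at the bottom.

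Counted from the control's 10th percentile upwards, there were 17 of 87 cells in xbp1-cr (19.5%, exact binomial interval 11.8% to 29.4%), 74 of 83 in atf6-cr (89.2%) and 1 of 73 in xbp1+atf6-cr (1.37%, 0.0347% to 7.40%), against 64 of 72 in tyr-cr (88.9%). In the 10 other libraries with xbp1 intact, among them atf6-cr and another without atf6, 72.8% to 93.8% of gland-like cells were that high. In the 3 other xbp1-lost libraries, where creb3l1 and creb3l2 were lost too, 6.67% and 12.5% were that high in the 2 without atf6. The one that kept atf6 had 7.87%. Median secretory shares per cell were 2.21% and 2.07% in the 2 without atf6, against 2.02% in the one that kept it. Those libraries therefore did not repeat the gap between xbp1-cr and xbp1+atf6-cr. The limit at the control's 10th percentile is a range cut from the data and not a cell type. Within 10% of it lay 2, 9 and 1 cells of xbp1-cr, atf6-cr and xbp1+atf6-cr, against 7 of tyr-cr.

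**Figure D3:**
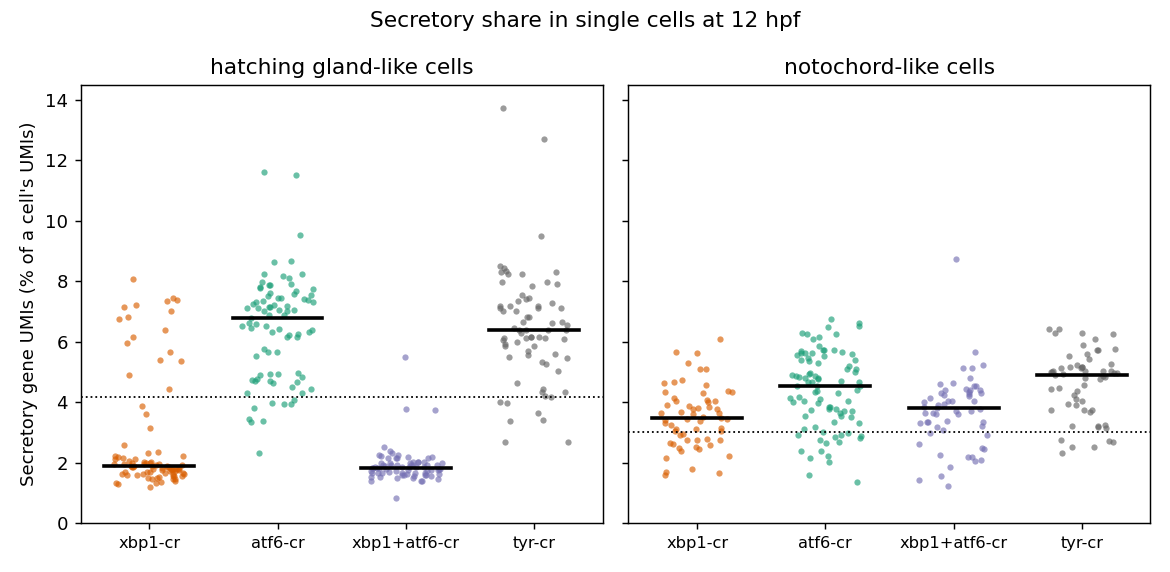
Secretory gene UMIs as a percentage of each cell's UMIs (y axis) for single hatching gland-like and notochord-like cells of xbp1-cr, atf6-cr, xbp1+atf6-cr and tyr-cr; each point is a cell, and the dotted line is the 10th percentile of tyr-cr. In hatching gland-like cells 17 of 87 points of xbp1-cr and 1 of 73 points of xbp1+atf6-cr lie at or above the line at 4.16%, against 64 of 72 of tyr-cr.

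The low and high cells of xbp1-cr also differed in atf6, which is not in the secretory set that split them. Its transcript was at 27.2 CPM in its 70 low cells (19.8 to 36.5) and 319 CPM in its 17 high cells (266 to 380), against 300.02 CPM in the 64 high cells of tyr-cr. The xbp1 transcript was nearly level between them, at 4207 CPM in the low and 3938 CPM in the high cells. Median depth was close, at 23649.5 UMIs in the low and 24799 in the high cells.

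The size of the additional loss in the double crispant depended on how cells were summed. From the summed secretory share the additivity was -0.50, and from the median share over cells it was -0.12. Double over xbp1-cr was -0.52 by the sum and -0.04 by the cell median. Cells under the control's 10th percentile were also compared, but that limit is set on the secretory share itself and limits how far the groups can differ, so that these values only describe the cells so chosen and do not measure the additional loss. When only cells under the control's 10th percentile were summed, 72 of the double crispant against 70 of xbp1-cr, 97 secretory genes had at least 50 UMIs and a median log2 ratio of 0.10, beside 0.04 for all 4433 genes. One secretory gene, agr2, was at least 2-fold lower, beside 0.632% of all genes. The part of unedited cells in these differences was not tested.

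The hsp70 genes, whose products are cytosolic heat shock proteins, were high in gland-like cells of both crispants with xbp1 lost and nearly silent there in the control. The hsp70l gene gave 380 UMIs in xbp1-cr, 3 in atf6-cr and 647 in xbp1+atf6-cr, against 0 in tyr-cr, which makes it at least 86.0-fold higher in xbp1-cr and at least 163-fold higher in xbp1+atf6-cr when the control is set to 3 UMIs over the library. The near-identical copies hsp70.1, hsp70.2 and hsp70.3 may exchange reads with it, so that the sum of the 4 genes is the firmer value. That sum was 816 CPM in xbp1-cr, 51.1 CPM in atf6-cr and 1470.4 CPM in xbp1+atf6-cr, against 5.85 CPM in tyr-cr from 8 UMIs. The ratio to tyr-cr was 140-fold in xbp1-cr (70.6 to 324), 8.75-fold in atf6-cr (4.24 to 20.9) and 252-fold in xbp1+atf6-cr (127 to 583). In atf6-cr 80 of the 83 family UMIs were of hsp70.3, with 3 of hsp70l and 0 of hsp70.1 and hsp70.2. In tyr-cr hsp70.3 gave 7 of the 8. Each of the 4 genes instead gave at least 81 UMIs in xbp1-cr and at least 195 in xbp1+atf6-cr.

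The Hsp70 partner gene dnajb1b followed, at 223 CPM in xbp1-cr, 56.1 CPM in atf6-cr and 328 CPM in xbp1+atf6-cr, against 21.2 CPM in tyr-cr. Of the 4 libraries, the crispants with xbp1 lost lay above the 9.36 to 63.4 CPM of the 8 other intact libraries, but the 3 other xbp1-lost libraries ranged over 29.8 to 345 CPM, with 1 of them inside the intact range. In those 8 libraries hsp70l was at 0 to 0.481 CPM. Of the 3 other xbp1-lost libraries, that with atf6 intact stood at 448 CPM and the 2 without atf6 at 2.98 and 14.97 CPM. These 2 libraries, which also lacked creb3l1 and creb3l2, therefore did not repeat the 358 CPM of xbp1+atf6-cr. The whole heat shock list of 21 genes had medians of only 0.20 in xbp1-cr, 0.27 in atf6-cr and 0.58 in xbp1+atf6-cr. The cytosolic Hsp90 gene hsp90aa1.2 was at 734 CPM in xbp1-cr, 385 CPM in atf6-cr and 1809 CPM in xbp1+atf6-cr, against 763 CPM in tyr-cr, with an additivity of 2.29 (2.12 to 2.46).

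The UMIs of the hsp70 family came from a minority of gland-like cells. Its 5 highest cells held 63.3% of the UMIs in xbp1-cr, 37.3% in atf6-cr and 50.9% in xbp1+atf6-cr, and the highest single cell held 343, 7 and 330, against 2 in tyr-cr. With each cell thinned to 5000 UMIs, 21 of 81 cells of xbp1-cr (25.9%), 16 of 62 of atf6-cr (25.8%) and 21 of 68 of xbp1+atf6-cr (30.9%) had a UMI of the family, against 2 of 58 of tyr-cr (3.45%). Shallower cells, 6, 21 and 5 of the crispants and 14 of tyr-cr, were left out, and the unthinned shares were 37.9%, 47.0% and 41.1%, against 9.72%. In cells outside the gland and notochord, at median depths of 12581 to 13978 UMIs against 23142.5 to 26395 in the gland, the thinned shares were 1.17% in xbp1-cr, 8.37% in atf6-cr and 2.83% in xbp1+atf6-cr, against 2.91% in tyr-cr. The gland shares of the 3 crispants therefore stood above those of other cells, and in atf6-cr at few UMIs per cell.

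Within xbp1-cr the family's UMIs lay in the cells with a low secretory share. Of 1644 UMIs, 1643 were in the 70 low cells, where 32 cells had at least 1, and 1 was in the 17 high cells. The level was 1015 CPM in the low cells of xbp1-cr and 1493 CPM in the low cells of xbp1+atf6-cr, against 6.15 CPM in the high cells of tyr-cr.

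**Figure D4:**
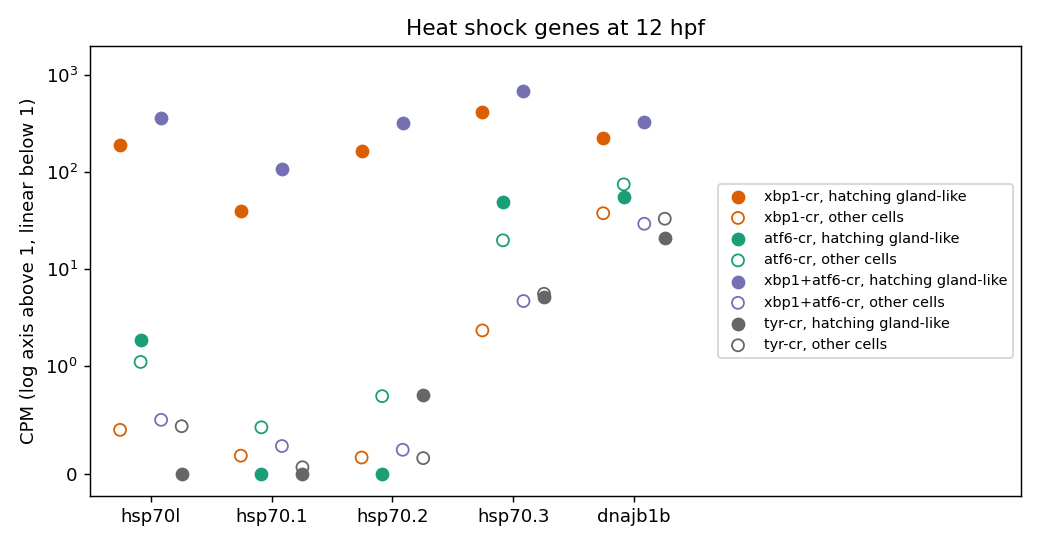
CPM (y axis, log above 1) of 5 heat shock genes in xbp1-cr, atf6-cr, xbp1+atf6-cr and tyr-cr, with filled points for hatching gland-like cells and open points for all cells outside the gland and notochord. In the gland xbp1-cr and xbp1+atf6-cr lie highest for every gene, with hsp70l at 188 and 358 CPM against 0 in tyr-cr.

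In notochord-like cells the secretory genes differed much less, and by the median over genes the double crispant did not lie below the xbp1 single crispant. By the summed secretory share it lay barely below, at 3.67% against 3.72%. Over 96 measured genes the median was -0.30 in xbp1-cr, -0.05 in atf6-cr and -0.28 in xbp1+atf6-cr, where the 8 other intact libraries ranged over -0.66 to -0.11, with atf6-cr above and the other crispants inside that range. At least 2-fold lower were 6 secretory genes in xbp1-cr, beside 1.15% of all 3297 genes, 4 in atf6-cr, beside 0.971%, and 6 in xbp1+atf6-cr, beside 0.91%. The additivity median was 0.10, against -0.01 over all genes. Chaperones were lower in both crispants with xbp1 lost than in tyr-cr, whose median secretory share exceeded that of the 8 other intact libraries. BiP was at 356 CPM in xbp1-cr, 776 CPM in atf6-cr and 366 CPM in xbp1+atf6-cr, against 602 CPM in tyr-cr. The ER Hsp90 gene hsp90b1 was at 40.5 CPM in xbp1-cr, 109 CPM in atf6-cr and 25.9 CPM in xbp1+atf6-cr, against 132 CPM in tyr-cr.

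Some genes outside the machinery set the notochord-like cells of the control apart. The cadherin gene cdh6 was at 157 CPM in xbp1-cr, 65.4 CPM in atf6-cr and 41.2 CPM in xbp1+atf6-cr, against 4.18 CPM in tyr-cr, and the growth factor gene igf2b at 117, 41.8 and 38.1 CPM, against 4.18 CPM in tyr-cr. Both control values rest on 2 UMIs. The notochord regulator gene noto, which marks progenitors, was at 1138 CPM in xbp1-cr, 688 CPM in atf6-cr and 960 CPM in xbp1+atf6-cr, against 1725 CPM in tyr-cr and 87.5 to 875 CPM in the other intact libraries. The sheath collagen gene col2a1a was at 595 CPM in xbp1-cr, 606 CPM in atf6-cr and 715 CPM in xbp1+atf6-cr, against 477 CPM in tyr-cr. A different mix of notochord stages and different levels per cell cannot be told apart in these sums. The part of either in the notochord values was not tested.

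Across 27 tissues with at least 50 cells in each of the 4 libraries, secretory genes stood clearly below all genes in a minority of tissues of the crispants with xbp1 lost, most where the control held most xbp1 messenger RNA. Clusters that were left unnamed count here as tissues, also among those with most xbp1. The secretory median was below 0 in 25 tissues of xbp1-cr, 1 of atf6-cr and 19 of xbp1+atf6-cr, with a median over tissues of -0.09, 0.08 and -0.03. The median over all genes was itself below 0 in xbp1-cr in every tissue but the gland, and above 0 in atf6-cr in every tissue. More than 0.1 below the median of all genes were the secretory medians of 10 tissues in xbp1-cr, 0 in atf6-cr and 7 in xbp1+atf6-cr. In the 5 tissues besides gland and notochord with at least 500 CPM of xbp1 in tyr-cr the medians ranged over -0.37 to -0.23 in xbp1-cr, 0.09 to 0.21 in atf6-cr and -0.35 to -0.16 in xbp1+atf6-cr. In the 14 tissues with less than 150 CPM they ranged over -0.11 to 0.01, 0.01 to 0.10 and -0.07 to 0.04. These medians were not set beside those of the other intact libraries, so that the spread between libraries in these tissues is not shown. In notochord-like cells the medians of both crispants with xbp1 lost, of a like size, lay inside that spread. As a description across the 27 tissues, Pearson's r between log2 xbp1 CPM in tyr-cr and the secretory median was -0.85 in xbp1-cr (Spearman's rho -0.89), 0.28 in atf6-cr (0.45) and -0.77 in xbp1+atf6-cr (-0.76). Without the hatching gland, over 26 tissues, r was -0.95, 0.36 and -0.88. The tissues share their libraries, and tyr-cr enters both axes.

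**Figure D5:**
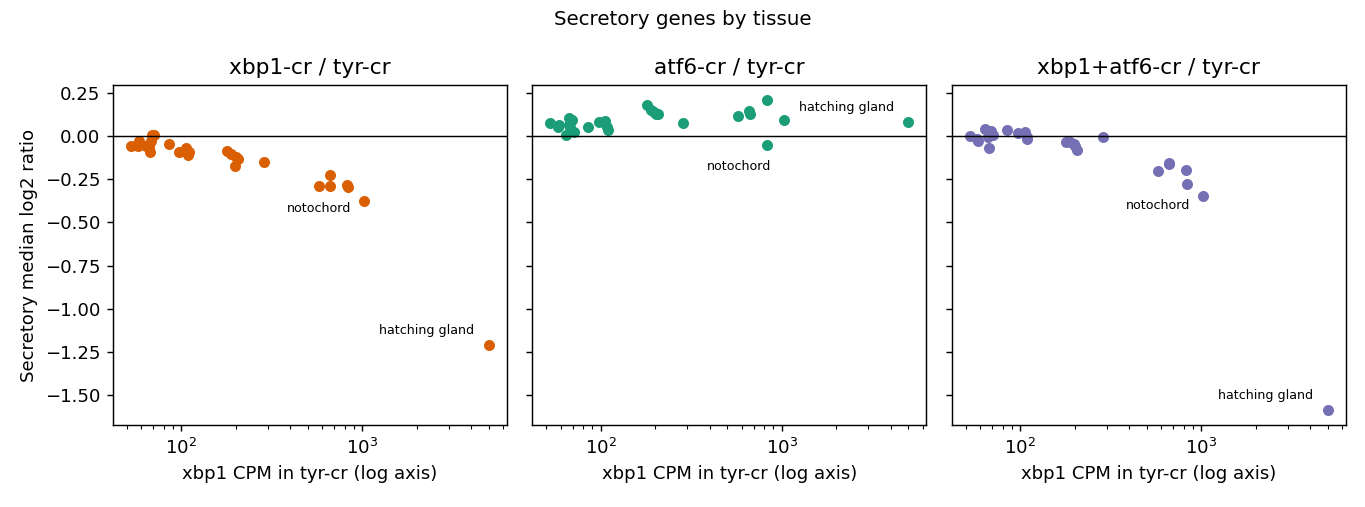
Secretory median log2 ratio to tyr-cr (y axis) against xbp1 CPM in tyr-cr (x axis, log) for 27 tissues, in 1 panel each for xbp1-cr, atf6-cr and xbp1+atf6-cr. The hatching gland lies lowest at -1.21 in xbp1-cr and -1.58 in xbp1+atf6-cr, and at 0.08 in atf6-cr.

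Over all cells of the embryo the differences were small. The secretory median over 131 genes was -0.23 in xbp1-cr, 0.09 in atf6-cr and -0.16 in xbp1+atf6-cr, beside -0.03, 0.08 and 0.01 over all 13996 genes. Both crispants with xbp1 lost lay just under the -0.13 to 0.26 of the 8 other intact libraries. BiP was at 39.7 CPM in xbp1-cr, 124 CPM in atf6-cr and 30.0 CPM in xbp1+atf6-cr, against 74.9 CPM in tyr-cr. The control itself lay just under the 78.4 to 154 CPM of the other intact libraries. At least 2-fold away from tyr-cr were 1.69% of genes in xbp1-cr, 4.24% in atf6-cr and 1.86% in xbp1+atf6-cr, whereas the 8 other intact libraries gave 5.07% to 20.7%.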

How the data were processed

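The 16 libraries of 12 hpf with V3 files were read as the authors deposited them, as raw UMI counts per gene and cell, made with Cell Ranger 3.1.0 for the set of these 4 libraries and 6.1.2 for the other set, per the file headers. Genome build and annotation are not given in the sources used here. Features with the same symbol (1354 of 27597) were summed. The 4 libraries held 49342936 to 65038562 UMIs in 4108 to 5087 barcodes. Cells of all 16 libraries were clustered with Scanpy 1.11.5 (2000 variable genes, 40 components, 15 neighbours, Leiden resolution 2, leidenalg 0.10.2), with genes centred within each file set. The clustering left out 374 genes, namely ribosomal protein genes, mitochondrial genes, the targeted genes and the secretory and stress lists studied. Of 53 clusters, 36 were named from markers, so that tissue names are rebuilt and not the authors'. The automatic doublet call marked at most 0.104% of cells in these 4 libraries and was taken to have failed. No doublet was removed, and an alternative removed the 3.08% to 3.76% with the highest scores.

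Counts were summed per library and tissue and divided by the total of those cells (CPM). Ratios carry exact conditional binomial 95% intervals, and additivity a 95% interval from the 4 counts. A library at 0 was set to 3 UMIs. Lists and comparisons were chosen with earlier results of these data known. Genes are named from the lists, or as the 5 higher and 5 lower genes by the interval bound nearest no difference among those with at least 100 UMIs over the 4 libraries. The calculations were checked on simulated counts. Analyses used Python 3.11.15, and edgeR 4.0.16 gave only the alternative scaling factors. Further xbp1 and tyr crispant libraries of another batch, and gene sequences, were not analysed here, and 1 gene list is not reported here. The alternatives tried are given in the closing section.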

Additional observations from a re-analysis of the deposited data

Results flagged for a closer look

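Some list medians pointed in opposite directions in the hatching gland and in other cells of the same libraries, each by at least 0.1 on the log2 scale. None of these differences was tested, since there was 1 library per genotype. Additivity was negative in hatching gland-like cells and positive in notochord-like cells for 5 gene sets. The secretory set as a whole had -0.48 in the gland and 0.10 in the notochord. Translocation genes had -0.37 in the gland and 0.21 in the notochord, and COPII genes -0.16 and 0.26. COPI genes had -0.28 in the gland and 0.16 in the notochord. Cargo receptors had -0.29 in the gland, 0.11 in the notochord and 0.18 in all cells outside both. The gland values rest on sums over the unlike cells of xbp1-cr. From the median share over cells, gland additivity was -0.12 for the secretory set and -0.18 for translocation. It was -0.05 for COPII genes, -0.06 for COPI genes and 0.01 for cargo receptors. The notochord values from the median share were 0.24, 0.16, 0.34, 0.24 and 0.40 in that order.

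The heat shock list in xbp1-cr had a median of 0.20 in the gland, -0.17 in the notochord and -0.17 in all cells outside both. In xbp1+atf6-cr it had 0.58 in the gland and -0.11 in the notochord. In atf6-cr the COPII genes had a median of 0.13 in the gland and -0.23 in the notochord.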

How the results depend on the processing

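Of the main values recomputed under alternatives, 290 stayed within 1 SD of 8 other intact libraries or, for counts, within 1.5-fold, 43 moved and 1 turned. Of single-gene ratios in the gland, 246 stayed within their 95% counting interval, 21 moved and 3 turned. Apart from the 1 main value that turned, a change of sign counted as turned only for log2 ratios of at least 1 either way. Smaller ratios and additivity medians that changed sign are therefore among those that stayed or moved. One such value was the secretory median of atf6-cr over all cells, which ranged over -0.11 to 0.11. In the hatching gland the secretory median stayed between -1.25 and -1.07 in xbp1-cr, -0.00 and 0.22 in atf6-cr, and -1.70 and -1.52 in xbp1+atf6-cr over the settings tried: 400 UMIs or 1 UMI as the minimum per gene, more UMIs per cell, a stricter limit on mitochondrial UMIs, high doublet scores removed, tissues from markers alone, TMM factors from edgeR, totals without the most abundant genes, and the second tyr-cr library as control. No paired analysis was possible because the results come from no test and each genotype had 1 library.

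With the second tyr-cr library, of the deeper file set, as control, genes past 2-fold in xbp1-cr, atf6-cr and xbp1+atf6-cr numbered 935, 551 and 1088 in the gland, 465, 327 and 422 in the notochord and 1818, 1450 and 1773 over all cells. The PERK and ATF4 medians in the gland became -0.38, -0.17 and -0.29, gland additivity -0.70, and over all cells the secretory medians -0.50, -0.11 and -0.48 with an additivity of 0.10. That control had 5.65% secretory UMIs in the gland, 2.81% gland-like and 3.82% notochord-like cells. In atf6-cr the gland ratios of aplp1, cdx4 and ved turned to -0.63, -0.67 and -1.12.

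With at least 400 UMIs per gene the counts past 2-fold were 145, 41 and 176 in the gland, 9, 10 and 6 in the notochord and 66, 211 and 99 over all cells. With 1 UMI per library they were 2429, 2386 and 2501, then 2120, 2060 and 2115, then 2022, 2628 and 2045, since low counts then enter.

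The remaining settings were chosen after seeing the data. Without a low-depth notochord-like cluster, 80 and 61 genes passed 2-fold in atf6-cr and xbp1+atf6-cr, and notochord-like cells were 1.03% in atf6-cr and 0.783% in tyr-cr. With the median over cells in place of the sum, gland additivity of the secretory share was -0.12. Among cells under the control's 10th percentile, the double crispant's secretory median against xbp1-cr was 0.10, against -0.38 over all gland-like cells, but those cells were chosen by the same secretory share, so that this value describes them only and bears on no other result. With 72 to 87 gland-like cells per library, genes of few UMIs carry wide intervals.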

Other observations

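Presomitic mesoderm-like cells were 6.1% of cells in xbp1-cr, 6.58% in atf6-cr and 8.78% in xbp1+atf6-cr, against 8.81% in tyr-cr, where the other intact libraries ranged over 3.99% to 7.40%. Somite-like cells were 3.09% in xbp1-cr, 3.21% in atf6-cr and 4.96% in xbp1+atf6-cr, against 3.21% in tyr-cr, with 1.70% to 3.9% in the other intact libraries.

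Single genes stood out in atf6-cr over all cells. The unnamed gene si:ch211-214b16.2 gave 201 UMIs in atf6-cr and 0 in xbp1-cr, xbp1+atf6-cr and tyr-cr, and reached 4.26 CPM in another intact library, against 3.1 CPM in atf6-cr. The gene al928650.4 gave 1 UMI in atf6-cr, 255 in xbp1-cr and 215 in xbp1+atf6-cr, against 118 in tyr-cr.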
